A study of Mus musculus with 1 sample.

Results

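The AP-1 and immediate early genes described here are 10 genes, Fos, Fosb, Jun, Junb, Jund, Egr1, Nr4a1, Ier2, Dusp1 and Zfp36, of the 32285 genes in the table. They were chosen by name, and their RNA was counted in blood T cells of 1 vehicle-treated mouse. The mouse came from a small cell lung cancer model on a C57BL/6 background, in which Adeno-Cre virus given into the trachea deletes Rb1 and Trp53. Its vehicle was PBS, given every 3 days, and neither its age nor its sex is used here. From 150 µl of blood, red cells were lysed and T cells were enriched by removing other cells with antibodies. Expression was measured by droplet sequencing with unique molecular identifiers (UMIs), tags that mark single captured RNA molecules, and T cell receptors were read from the same droplets. The table holds 12855001 UMIs, of which 62.0% were in cells. As 1 library of 1 mouse, these data hold no replicate and allow no test between conditions, so intervals are 95% intervals that cover counting error only.

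AP-1 is a transcription factor made of a pair of proteins of the FOS and JUN families. Several of its subunits, EGR1 and NR4A1 belong to the immediate early genes, which need no new protein for their induction. Such genes are switched on quickly by T cell receptor signalling, growth factors, stress and tissue handling. Their mRNAs are short-lived, and the response carries its own brakes, among them the phosphatase DUSP1, which inactivates MAP kinases, and the RNA-binding protein ZFP36, which speeds the decay of AU-rich mRNAs. The blood was processed in 1 way only, so a state of the cells in the circulation and a response to drawing, lysis and enrichment cannot be told apart.

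The 250 bases before the RefSeq transcription start (GRCm38.p6, the build named in the submitters' processing notes) are shown for Fos, the classic member, and for Junb and Zfp36, whose ratios by ribosomal protein share in CD4 cells are described further on. Such windows were examined for 8 of the 10 members, all but Ier2 and Egr1. Capitals mark matches, on either strand, to the cAMP response element half-site TGACG, the TATA box TATAAA and the CArG box, the binding motif of serum response factor. The AP-1 site TGANTCA was searched as well.
Fos (chr12:85473640-85473889, plus strand): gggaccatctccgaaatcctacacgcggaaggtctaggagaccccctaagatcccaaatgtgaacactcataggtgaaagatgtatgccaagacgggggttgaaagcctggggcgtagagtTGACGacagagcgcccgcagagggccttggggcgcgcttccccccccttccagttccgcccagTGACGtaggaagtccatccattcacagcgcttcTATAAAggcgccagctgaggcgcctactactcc
Junb (chr8:84978749-84978998, minus strand): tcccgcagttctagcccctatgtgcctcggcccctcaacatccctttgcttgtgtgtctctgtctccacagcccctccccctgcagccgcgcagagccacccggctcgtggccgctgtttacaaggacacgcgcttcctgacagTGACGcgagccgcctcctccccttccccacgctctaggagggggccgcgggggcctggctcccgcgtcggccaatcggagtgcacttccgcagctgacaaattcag
Zfp36 (chr7:28379229-28379478, minus strand): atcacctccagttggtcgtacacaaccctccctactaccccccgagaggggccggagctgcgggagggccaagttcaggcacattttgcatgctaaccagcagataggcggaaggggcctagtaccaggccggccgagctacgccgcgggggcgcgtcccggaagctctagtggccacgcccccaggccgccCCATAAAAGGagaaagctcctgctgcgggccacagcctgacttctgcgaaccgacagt
The Fos window held 2 half-sites, which begin 129 and 66 bases before the start, and a TATA box 33 bases before it. The half-site was found in 5 of the 8 members' windows (Fos, Fosb, Junb, Dusp1 and Nr4a1), against 17.8% of all 32851 windows of this length. A CArG box was found in Zfp36 alone among the 8, 58 bases before its start, and in 1.47% of all windows. The TATA box was found in Fos alone, against 12.4% of all windows, and the AP-1 site in none of the 8, against 6.75%. No match overlapped a match to another motif. In the same build Jund (chr8:70697739-70700616), Ier2 (chr8:84661331-84662852) and Junb (chr8:84976909-84978748) lie on 1 chromosome, as do Fosb (chr7:19302696-19310118) and Zfp36 (chr7:28376784-28379228), while Fos (chr12:85473890-85477274), Jun (chr4:95049036-95052222), Nr4a1 (chr15:101253902-101274795) and Dusp1 (chr17:26505591-26508472) lie apart. The motif matches describe the letters of the windows and nothing was measured on binding.

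Of 300213 barcodes, 1600 had at least 1331 UMIs and are called cells here. Cells were put into 4 classes by their marker UMIs. The CD4 class (366 cells) had Cd4 and no Cd8a, Cd8b1 or Cd79a UMI. The CD8 class had Cd8a or Cd8b1 and no Cd4 or Cd79a UMI, and was divided by UMIs of the granzyme genes Gzmk, Gzma or Gzmb into 598 cells without and 108 cells with granzyme. The Cd79a class (106 cells) had a UMI of the B cell receptor component Cd79a. The other 422 cells belong to none of these. Median depth was 3382 UMIs in the CD4 class, 5648 and 5332.5 UMIs in the CD8 classes without and with granzyme, and 3657 UMIs in the Cd79a class. The T cell label held for the T classes, in which the 5 T cell markers summed to between 23.4 and 34.2 UMIs per 10000. In the Cd79a class they came to 4.85, with a UMI in 27 of 106 cells, while the 5 B cell markers came to 61.9 there and to between 0.499 and 1.47 in the T classes. Neutrophil markers stood at 0 in the Cd79a class and the granzyme class. They had 604 UMIs in 9 cells of the CD8 class without granzyme, and their part in its rates is given where a result rests on it. At least 3 markers of another lineage were found in 3 T cells for neutrophils, 3 for natural killer cells, 1 for monocytes and 32 for platelets. Free RNA, measured on 20532 barcodes with 10 to 50 UMIs, is given for comparison. Its rates are those within free RNA, and the part of a cell's UMIs that is free RNA was not measured. A rate at or under that of free RNA therefore does not show that a gene is absent from the cells.

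Among the JUN genes, Jund and Junb were found throughout and Jun was sparse. Jund, whose protein is the JUN subunit of resting cells, had 3.90 UMIs per 10000 in CD4 cells (3.58 to 4.23), 3.34 (3.16 to 3.52) in CD8 cells without granzyme, 3.95 (3.48 to 4.46) in those with granzyme and 11.2 (10.2 to 12.2) in Cd79a cells. All 4 rates lay above the 1.99 (1.70 to 2.32) of free RNA, and the Cd79a interval lay above those of all 3 T classes. Junb, which is induced by T cell activation and by cytokines, had 2.53 (2.28 to 2.80), 1.82 (1.69 to 1.96), 2.36 (1.99 to 2.76) and 2.94 (2.46 to 3.49) in the same order, against 0.996 (0.793 to 1.23) in free RNA. Its lowest rate among the classes was that of CD8 cells without granzyme, whose interval met none of the others. Jun had 0.207 (0.140 to 0.295) in CD4 cells, 0.128 (0.0951 to 0.169) in CD8 cells without granzyme and 0.427 (0.257 to 0.667) in Cd79a cells. With granzyme there was 1 Jun UMI in 108 cells. The free RNA rate of Jun was 0.0960 (0.0414 to 0.189), and neither CD8 rate could be told apart from it. The interval of CD4 cells overlapped that of free RNA as well.

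The FOS genes were near the detection limit in T cells. Fos was found with 34 UMIs in 23 of 366 CD4 cells, 20 UMIs in 19 of 598 CD8 cells without granzyme, 1 UMI in 108 CD8 cells with granzyme and 18 UMIs in 12 of 106 Cd79a cells. Per 10000 UMIs these are 0.235 (0.162 to 0.328), 0.0512 (0.0313 to 0.0791), 0.0156 and 0.405 (0.240 to 0.639). The free RNA rate of 0.0840 (0.0338 to 0.173) lay above both CD8 rates, and its interval overlapped that of CD4 cells. Fosb, a FOS family subunit, had 7, 15, 1 and 1 UMIs in the 4 classes, rates of 0.0483, 0.0384, 0.0156 and 0.0225 per 10000 that were all under the free RNA rate of 0.0600.

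The same held for the zinc finger factor Egr1 and the orphan nuclear receptor Nr4a1, both used as reporters of recent T cell receptor signalling. Egr1 had 14 UMIs in 12 CD4 cells and 7 UMIs in 7 CD8 cells with granzyme, rates of 0.0966 (0.0528 to 0.162) and 0.109 (0.0439 to 0.225). In 598 CD8 cells without granzyme it had 4 UMIs (0.0102, 0.00279 to 0.0262), and in Cd79a cells none, a class in which 3 UMIs would have been a rate of 0.0674. The free RNA rate of Egr1, 0.0480 (0.0131 to 0.123), overlapped the first 2 of these intervals. Nr4a1 had 10 UMIs in 4 CD4 cells, of which 7 UMIs came from 1 cell. It had 8 UMIs in 4 Cd79a cells (0.180, 0.0776 to 0.354), against a free RNA rate of 0.0240 (0.00291 to 0.0867).

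Of the remaining members, Ier2, an immediate early gene whose protein acts in the nucleus, had 0.993 UMIs per 10000 (0.838 to 1.17) in CD4 cells, 0.897 (0.805 to 0.996) and 1.29 (1.03 to 1.60) in CD8 cells without and with granzyme, and 1.03 (0.757 to 1.38) in Cd79a cells. All were above the 0.480 (0.343 to 0.653) of free RNA. Zfp36 had 1.17 (0.997 to 1.36), 0.756 (0.672 to 0.847), 1.03 (0.796 to 1.31) and 2.90 (2.42 to 3.44) in the same order, and 0.612 (0.455 to 0.804) in free RNA. Its Cd79a rate stood apart from the others, and its intervals in both CD8 classes overlapped that of free RNA. Dusp1 had 0.290 (0.209 to 0.392), 0.167 (0.129 to 0.212), 0.109 (0.0439 to 0.225) and 0.135 (0.0495 to 0.293), and 0.0840 (0.0338 to 0.173) in free RNA. The CD4 interval alone lay clear of that of free RNA.

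**Figure D1:**
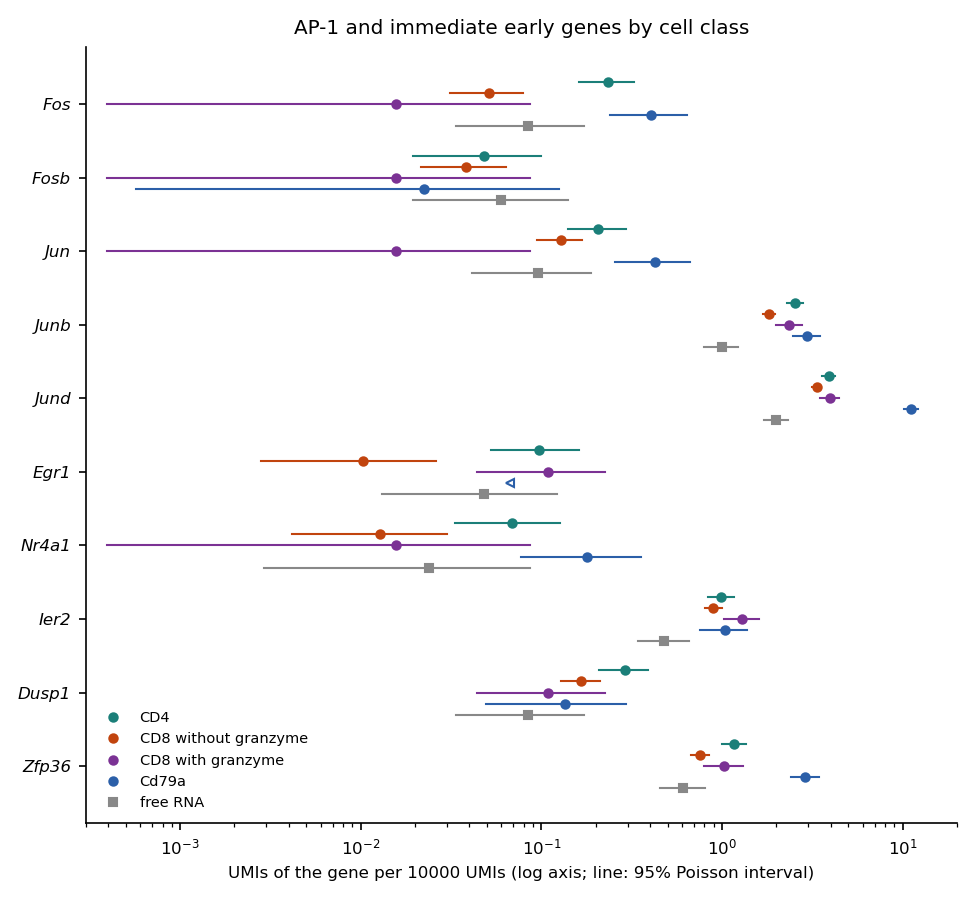
UMIs of each member per 10000 UMIs (log axis) in the 4 cell classes and in free RNA, pooled over the cells of a class. Points are rates, lines are 95% Poisson intervals, and the open triangle for Egr1 marks the rate of 0.0674 that 3 UMIs would give in the Cd79a class, where none was found. Jund and Zfp36 are higher in Cd79a cells than in every T class, and Fos, Fosb, Egr1 and Nr4a1 lie at or below the free RNA level in CD8 cells without granzyme.

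CD4 cells were compared with CD8 cells without granzyme to see whether the members differ between the main groups of circulating T cells. A gene was counted as higher or lower at a ratio of pooled rates of 1.5 or more either way (1.5 or 0.667), and genes with fewer than 50 UMIs over both groups were not counted. Of the 7 members with enough UMIs, 4 were higher in CD4 cells and none lower, where 19.7% of the 8427 genes tested were higher and 6.19% lower. Their ratios were 4.58 (2.56 to 8.39) for Fos, 1.74 (1.15 to 2.60) for Dusp1, 1.62 (0.992 to 2.59) for Jun and 1.54 (1.27 to 1.87) for Zfp36, while Junb stood at 1.39 (1.22 to 1.58), Jund at 1.17 (1.06 to 1.29) and Ier2 at 1.11 (0.906 to 1.349). Dusp1 had 42 against 65 UMIs, and 16 of the 65 came from 3 cells with at least 3 neutrophil markers. The median over the 7 was 1.54, beside 1.18 over all genes. CD8 cells had a larger part of their UMIs on ribosomal protein genes (29.8% against 19.3%), which lowers every other rate. Without ribosomal protein and mitochondrial genes in the total, 2 members remained past the limit, Fos at 3.97 (2.22 to 7.28) and Dusp1 at 1.51 (0.999 to 2.26). On that total 9.51% of 8332 genes were higher and 9.77% lower. Jun then stood at 1.40 and Zfp36 at 1.34, Jund at 1.01 and Ier2 at 0.962, on the other side of 1. This scaling moved the median of all genes by -0.20 on the log2 scale, and the share of higher genes among those called from 76.1% to 49.3%. Relative to the median of all genes, the ratios were 3.89 for Fos, 1.48 for Dusp1, 1.37 for Jun, 1.31 for Zfp36, 1.18 for Junb, 0.993 for Jund and 0.942 for Ier2.

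The CD4 and CD8 classes also differ in depth and in the number of cells with little ribosomal RNA. Among cells with a ribosomal protein share of at least 10% the ratio was 2.33 for Jun, 2.22 for Dusp1, 1.80 for Zfp36 and 1.56 for Junb. Fos stood at 4.74 among them, but with 28 against 18 UMIs it was under the minimum of 50. Among cells of 2000 to 4000 UMIs 4 members had enough UMIs, and Zfp36 alone was past the limit, at 2.03, while Junb stood at 1.19, Ier2 at 0.940 and Jund at 0.889. Fos (11 against 4 UMIs), Jun (15 against 3) and Dusp1 (18 against 26) were under the minimum of 50 UMIs in this range, which allows no statement on their direction. The Fos rate of CD8 cells was itself under that of free RNA, and the ratio rests on 34 against 20 UMIs.

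Granzymes are proteases of cytotoxic effector and memory cells, and CD8 cells with granzyme were set against those without. Of 6 members with enough UMIs none was higher and 2 were lower, beside 18.6% of 7965 genes higher and 16.2% lower. Jun had 1 against 50 UMIs, with a ratio of 0.122 (0.00302 to 0.710), where neither rate could be told from the free RNA rate and its 51 UMIs only just pass the minimum. Dusp1 had 7 against 65 UMIs, with 0.656 (0.254 to 1.43). Neither was counted as lower without the cell with most UMIs of the member, among clonotyped cells or at a ribosomal share of 10% or more. For Jun this was because it fell under the minimum of 50 UMIs there, which allows no statement on its direction. The Dusp1 interval includes 1, and 16 of its 65 UMIs came from 3 cells with at least 3 neutrophil markers. Without cells that carried 3 markers of another lineage the ratio of Dusp1 was 0.902. The cells with granzyme had 1.44 times the Ier2 rate (1.12 to 1.84), 1.36 times the Zfp36 rate (1.03 to 1.78), 1.29 times the Junb rate (1.08 to 1.55) and 1.18 times the Jund rate (1.03 to 1.354). Without ribosomal protein and mitochondrial genes these became 1.28, 1.21, 1.15 and 1.05, with every interval reaching below 1, and the higher share of called genes went from 53.5% to 33.5%. The shift of the median of all genes was -0.16 on the log2 scale. Relative to that median, the main ratios were 1.38 for Ier2, 1.30 for Zfp36, 1.23 for Junb and 1.13 for Jund. Among cells of 2000 to 4000 UMIs, where 3 members had enough UMIs, Junb at 1.63, Jund at 1.51 and Ier2 at 2.07 were past the limit. Cells with a ribosomal share under 10% made up 32.4% of the class without granzyme and 9.26% of that with granzyme. They held 50 of the 92 Junb UMIs without granzyme in this depth range, against 76 of 710 at all depths. The part of this mix in the 3 ratios was not tested, and the share of all genes past the limit was not computed in this range. Egr1, with 7 against 4 UMIs, was too sparse to be counted and had a ratio of 10.7 (2.71 to 49.6).

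Cd79a cells had more RNA of several members than T cells. Of 7 members with enough UMIs, 4 were higher than in the pooled T classes and none was lower, where 17.1% of 8912 genes were higher and 20.7% lower. The 4 were Fos at 4.41 (2.44 to 7.62), Zfp36 at 3.28 (2.68 to 3.98), Jun at 3.16 (1.81 to 5.26) and Jund at 3.16 (2.86 to 3.48). Junb stood at 1.44 (1.19 to 1.72), Ier2 at 1.07 (0.777 to 1.45) and Dusp1 at 0.709 (0.255 to 1.59). Dusp1, with 6 against 114 UMIs, was lower at 0.663 (0.238 to 1.49) without ribosomal protein and mitochondrial genes, where 23.8% of 8817 genes were lower. That interval includes 1, and 16 of the 114 UMIs came from 3 T cells with at least 3 neutrophil markers. Among cells of 2000 to 4000 UMIs Jund, at 3.40, and Zfp36, at 2.99, were past the limit, and Fos and Jun had fewer than 50 UMIs. The median of the 7 was 3.16 and that of all genes 0.9999. At equal depth, with every cell thinned to 1331 UMIs, a Jund UMI was found in 72.6% of Cd79a cells (63.1% to 80.9%) and in between 30.1% and 33.3% of the cells of the T classes. Before thinning these shares were 88.7% and between 54.4% and 73.1%. A Zfp36 UMI was found in 25.5% of thinned Cd79a cells (17.5% to 34.9%) and in between 9.70% and 13.9% of thinned T cells.

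The ratios of Jund and Zfp36 were about as large among high ribosomal cells. Fos and Jun, with 18 and 19 UMIs in Cd79a cells, are not given by ribosomal group. Among cells with a ribosomal share of at least 10% they were 3.14 for Jund and 3.17 for Zfp36. Among the 28 Cd79a cells under 10%, Jund had 6.38 UMIs per 10000 (4.70 to 8.46) and Zfp36 2.26 (1.32 to 3.62). Under 10%, Jund had 1.79 in CD4 cells and 2.25 in CD8 cells without granzyme, and Zfp36 0.506 and 0.624. Without the 11 Cd79a cells that had a clonotype or 3 T cell markers, the ratio of the 10 members together was 2.62, beside 2.41 (2.24 to 2.60) with them. Without ribosomal protein and mitochondrial genes it was 2.26. The share of higher genes among those called went from 45.3% to 37.7% with that scaling.

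**Figure D2:**
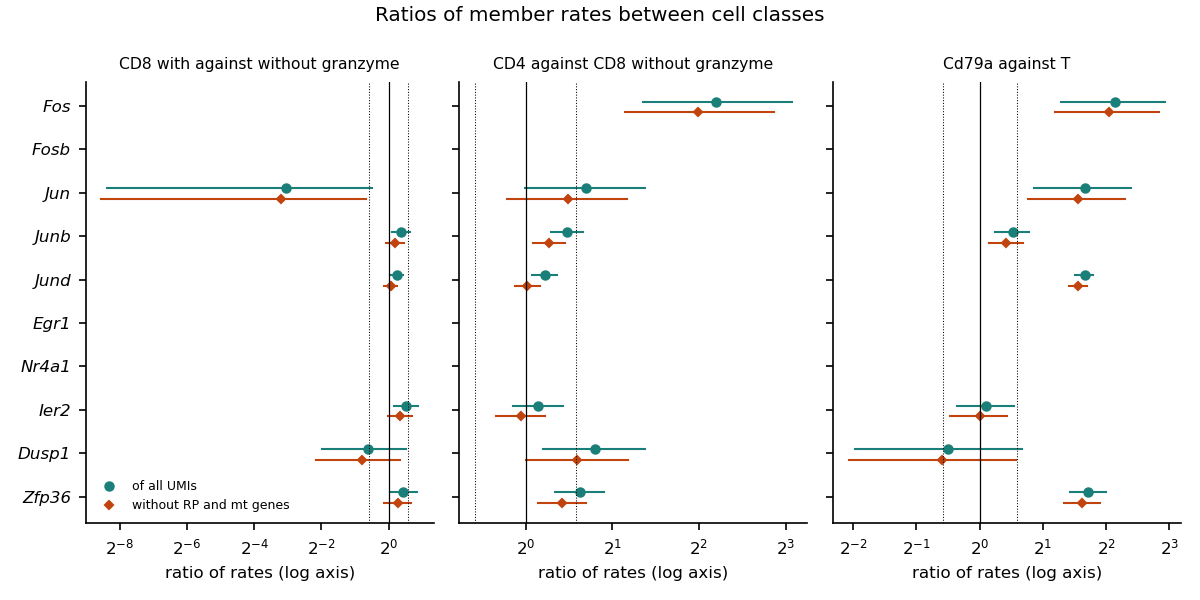
Ratio of the rates of each member between cell classes (log axis), with 95% intervals, for members with at least 50 UMIs in both classes together. Circles are ratios of UMIs per 10000 of all UMIs, diamonds are ratios without ribosomal protein (RP) and mitochondrial (mt) genes, the solid line marks 1 and the dotted lines mark 1.5 and 0.667. Jund, Zfp36, Jun and Fos lie beyond 1.5 for Cd79a cells against T cells with both totals, and Fos does for CD4 cells against CD8 cells without granzyme.

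In 346 of 1072 T cells less than 10% of the UMIs came from ribosomal protein genes, and 36 of the 1072 lay between 8% and 12%. These low ribosomal cells were shallower, with a median of 2719 against 4214.5 UMIs in the CD4 class and 3381 against 8023 UMIs in the CD8 class without granzyme. They had more mitochondrial RNA (2.74% against 1.59%, and 3.37% against 1.54%) and more of the nuclear RNA Malat1 (3.01% against 1.18%, and 2.08% against 0.593%). Their T cell markers summed to 13.6 against 33.2 UMIs per 10000 in the CD4 class and to 11.2 against 26.0 in the CD8 class, so these were lower in the same cells as the members. Platelet markers came to 1.77 against 1.03 in CD4 and 1.79 against 0.389 in CD8 cells, monocyte markers to 0.329 against 0.275 and 0.523 against 0.143, and neutrophil markers to 0.0506 against 0.00949 and 5.39 against 0.725. A clonotype was read in 36.6% against 95.1% of the CD4 cells and in 24.2% against 92.3% of the CD8 cells. The part of these features in the following differences was not tested.

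In low ribosomal CD4 cells, the rates of Junb, Jund, Ier2 and Zfp36 were near those within free RNA. What part of their UMIs in these cells was free RNA was not measured. Junb had 1.06 UMIs per 10000 (0.765 to 1.44) in low and 3.08 (2.76 to 3.44) in high ribosomal cells, a ratio of 0.344 (0.243 to 0.476). Jund had 1.79 (1.40 to 2.26) and 4.69 (4.28 to 5.12), a ratio of 0.383 (0.294 to 0.492). Ier2 had 0.430 (0.250 to 0.688) and 1.20 (1.005 to 1.43), and Zfp36 had 0.506 (0.309 to 0.781) and 1.41 (1.20 to 1.66), ratios of 0.357 (0.201 to 0.594) and 0.358 (0.212 to 0.572). These were the 4 members with enough UMIs. All 4 were lower and none was higher, where 25.1% of 4858 genes were lower and 47.7% higher. The 10 members together had 4.45 (3.82 to 5.16) in low ribosomal CD4 cells, beside 4.47 (4.03 to 4.95) in free RNA and 11.4 (10.8 to 12.1) in high ribosomal cells. The sparse members pointed both ways, with Jun at 1 against 29 UMIs, Fos at 6 against 28, Egr1 at 4 against 10, and Nr4a1 at 7 against 3 UMIs, all 7 in the same cell.

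The CD8 cells without granzyme showed the same direction for Junb, Jund and Ier2 at smaller size. Junb had 1.10 (0.869 to 1.38) in low and 1.97 (1.82 to 2.13) in high ribosomal cells, a ratio of 0.559 (0.435 to 0.710). For Jund it was 0.630 (0.529 to 0.746) and for Ier2 0.486 (0.329 to 0.696). Zfp36, at 0.796 (0.562 to 1.10), stayed within the limit, but stood at 0.537 (0.379 to 0.744) without ribosomal protein and mitochondrial genes, and Jun stood at 1.47 (0.701 to 2.88). Of 6 members with enough UMIs 3 were lower and 1 was higher, where 19.8% of 7527 genes were lower and 54.1% higher. The higher one was Dusp1, with 17 against 48 UMIs and a ratio of 1.65 (0.891 to 2.93). With that other total 4 members were lower and none was higher, where 29.6% of 7432 genes were lower and 37.5% higher. The Dusp1 interval includes 1, and 9 of the 17 UMIs came from 2 cells with at least 3 neutrophil markers. Without cells that carried 3 markers of another lineage its ratio was 0.967. The difference between the CD4 and the CD8 ratios was not tested.

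The low against high ribosomal ratios stand against a general shift, since the median gene was at 1.42 in CD4 and 1.66 in CD8 cells. Relative to that median Junb was at 0.242, Ier2 at 0.250, Zfp36 at 0.251 and Jund at 0.269 in CD4 cells, and Ier2 at 0.293, Junb at 0.337, Jund at 0.380, Zfp36 at 0.480 and Dusp1 at 0.996 in CD8 cells. Without ribosomal protein and mitochondrial genes the ratio of the 10 members together went from 0.389 to 0.301 in CD4 and from 0.653 to 0.441 in CD8 cells, and Dusp1 in CD8 cells to 1.11. The median of all genes then moved by -0.34 and -0.55 on the log2 scale, and the higher share of called genes from 65.6% to 54.4% and from 73.2% to 55.9%. Among clonotyped cells the summed ratio was 0.529 in CD4 and 0.804 in CD8 cells. Of the 4 CD8 members testable there Junb, at 0.603, and Ier2, at 0.562, remained lower, and Jund, at 0.793, and Zfp36, at 0.945, were within the limit.

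**Figure D3:**
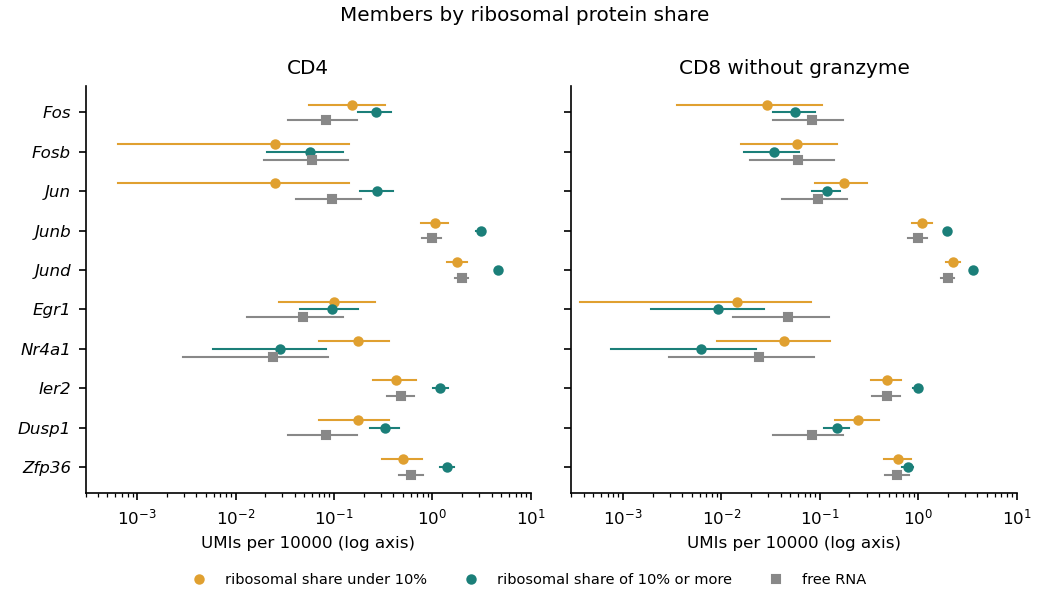
UMIs of each member per 10000 UMIs (log axis) in CD4 cells and CD8 cells without granzyme, divided at a ribosomal protein share of 10%, with free RNA. Points are rates pooled over cells and lines are 95% Poisson intervals. Junb, Jund, Ier2 and Zfp36 of low ribosomal CD4 cells lie on the free RNA rates, and those of high ribosomal CD4 cells lie above them.

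Wider lists of the pathway were set beside the members. They held 9 other AP-1 family genes, 22 other early response genes, 5 dual specificity phosphatases, 2 other ZFP36 family genes and 13 upstream kinases and factors. In low ribosomal cells the upstream list went the other way from the members. Of its 10 genes with enough UMIs in CD4 cells 9 were higher and none was lower, with a median ratio of 2.47, and in CD8 cells 9 of 12 were higher and none lower, with a median of 3.40. Of all genes 47.7% were higher in CD4 and 54.1% in CD8 cells, with medians of 1.42 and 1.66. With the other total, that without ribosomal protein and mitochondrial genes, 8 of 10 were higher and none lower in CD4 cells. In CD8 cells 8 of 12 were then higher and 1 lower. On that total 37.3% of all genes were higher in CD4 and 37.5% in CD8 cells. The members had medians of 0.357 and 0.713 on the total of all UMIs. Mef2a, a MEF2 family factor that binds early gene promoters, had a ratio of 4.87 (3.60 to 6.62) in CD4 and 5.63 (4.61 to 6.89) in CD8 cells. Map2k4, a kinase of the JNK pathway, stood at 3.35 (2.34 to 4.82) and 3.77 (2.956 to 4.796) and Creb1, which binds cAMP response elements, at 2.53 (1.93 to 3.31) and 3.48 (2.87 to 4.21). After the scaling without ribosomal protein and mitochondrial genes these 3 genes had ratios from 1.955 to 3.80.

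In the low ribosomal cells more of the other early response genes were lower than higher. In CD4 cells 5 of 10 were lower and 1 was higher (median 0.661), and in CD8 cells 4 of 13 were lower and 1 was higher (median 0.781), where 25.1% and 19.8% of all genes were lower. On the total without ribosomal protein and mitochondrial genes 8 of 10 and 8 of 13 were lower, and 1 was higher in each. Of all genes 31.3% and 29.6% were lower on that total, and 37.3% and 37.5% higher. Klf2, a quiescence and homing factor, had the most UMIs of this list, and its ratio was 0.537 (0.476 to 0.604) in CD4 and 0.601 (0.544 to 0.664) in CD8 cells. Btg1, an antiproliferative gene and the next in UMIs, stood at 0.641 (0.552 to 0.741) in CD4 cells. Nfkbia, the NF-κB inhibitor, stood at 0.416 (0.307 to 0.554) in CD4 cells. In CD8 cells Btg1, at 0.772 (0.687 to 0.866), and Nfkbia, at 0.803 (0.653 to 0.980), were within the limit. Nfkbiz, which encodes a nuclear IκB protein, was the one higher gene of this list in CD4 and in CD8 cells, at 2.91 (1.89 to 4.48) and 2.97 (2.15 to 4.06). Dusp10, a phosphatase of p38 and JNK, was higher too, at 2.72 (1.80 to 4.10) and 2.43 (1.76 to 3.33). Zfp36l2, a relative of Zfp36, was at 1.58 (1.36 to 1.83) in CD8 cells, but at 1.06 without ribosomal protein and mitochondrial genes.

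**Figure D4:**
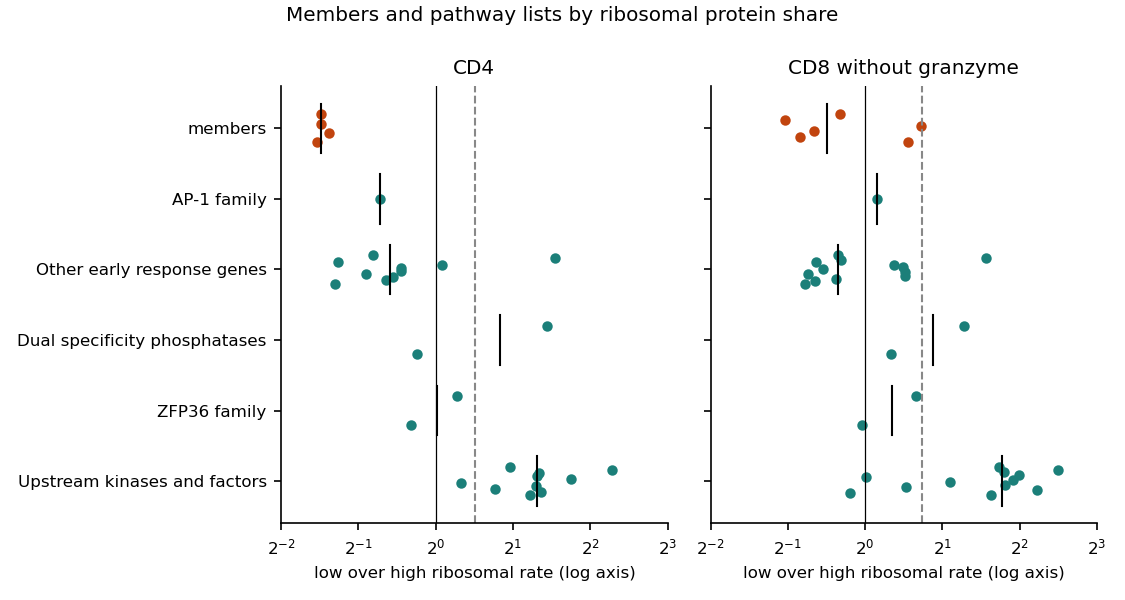
Ratio of the rate in low over that in high ribosomal cells (log axis) for each gene with at least 50 UMIs, grouped as members and as 5 pathway lists, in CD4 cells and CD8 cells without granzyme. Black ticks are list medians, the solid line marks 1 and the dashed line marks the median of all genes tested (1.42 and 1.66). The members lie mostly left of 1 and the upstream kinases and factors mostly right of the median of all genes.

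Between the classes, some of the genes of the wider lists past the limit are named here, chosen with their values in view. In CD8 cells with granzyme, Ier3, a survival gene, was at 7.89 (5.46 to 11.5), Dusp5, a phosphatase of ERK, at 5.92 (3.64 to 9.64), and Rgs1, a brake on chemokine receptor signalling, at 5.41 (2.99 to 9.74) times the rate without granzyme. Lower were Myc at 0.335 (0.185 to 0.562), the early activation marker Cd69 at 0.488 (0.372 to 0.630) and Dusp10 at 0.202 (0.0731 to 0.448). Of the 14 other early response genes tested 2 were higher and 4 lower, beside 18.6% and 16.2% of all genes. In CD4 cells, the AP-1 family gene Batf was at 1.75 (1.36 to 2.25), the cytokine signalling inhibitor Socs3 at 1.88 (1.53 to 2.29) and the antiproliferative gene Btg2 at 1.70 (1.47 to 1.96) times the rate of CD8 cells without granzyme, and Myc at 0.325 (0.220 to 0.468). Ier3 was lower too, at 0.399 (0.164 to 0.843). Of the 13 other early response genes tested 2 were higher and 2 lower, beside 19.7% and 6.19% of all genes. Without ribosomal protein and mitochondrial genes Btg2 stood at 1.47, under the limit. In Cd79a cells, Ier5 was at 2.85 (2.33 to 3.47), Zfp36l1, a relative of Zfp36, at 2.65 (2.26 to 3.09), the stress gene Gadd45b at 2.45 (1.39 to 4.07), the ERK pathway kinase Map2k1 at 2.20 (1.56 to 3.03) and Myc at 1.97 (1.42 to 2.68) times the T cell rate. Batf stood at 0.528 (0.270 to 0.936) there, and Ier3, with 1 against 132 UMIs, at 0.102 (0.00256 to 0.578). Of the 15 other early response genes tested 6 were higher and 3 lower in Cd79a cells, beside 17.1% and 20.7% of all genes.

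Few cells carried many members at once. With each cell thinned to 1331 UMIs, 38.8% of the 726 high ribosomal T cells had no UMI of any member and 7.30% had UMIs of 3 or more. In the 346 low ribosomal T cells these shares were 57.5% and 2.31%, and in the 106 Cd79a cells 15.1% and 16.04%. No cell of the 4 classes had more than 6 of the 10. Pairs of members were found together in few cells. In 224 high ribosomal CD4 cells Fos was found in 8 thinned cells, 5 of which also had Jund, and the Pearson correlation of their log counts was 0.287. The same pair had 0.0365 over 404 high ribosomal CD8 cells without granzyme and 0.232 over 78 high ribosomal Cd79a cells. Junb and Jund had a correlation of 0.232 over these Cd79a cells, where 16 cells had both. In the high ribosomal CD4 cells and CD8 cells without granzyme theirs was 0.151 and 0.162. Such values are descriptions of sparse counts, as the cells share 1 library and its free RNA.

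**Figure D5:**
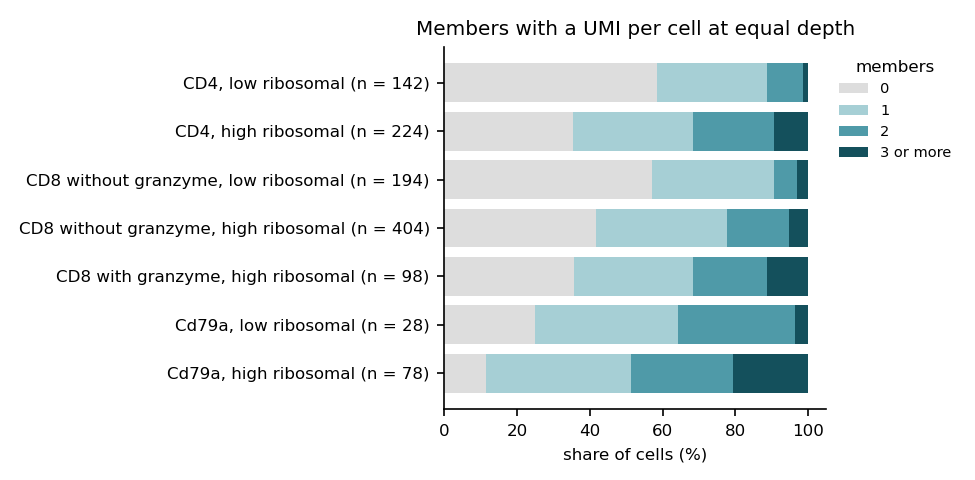
Share of cells (%) with UMIs of 0, 1, 2 or 3 or more of the 10 members, after each cell was thinned to 1331 UMIs, by class and ribosomal protein share. The low ribosomal CD4 and CD8 cells have the largest shares without any member, and the high ribosomal Cd79a cells the largest share with 3 or more.

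The genes most like the members across cells were found by the Pearson correlation of log thinned counts with the 10 members summed. Over 224 high ribosomal CD4 cells and 600 candidate genes the first were Pdia3, an endoplasmic reticulum protein disulfide isomerase (0.296), the tetraspanin Cd37 (0.227), the heat shock cognate Hspa8 (0.198) and the transcriptional repressor Bach2 (0.184), followed by Resf1, Pik3r5, Adgre5, Fkbp1a, Arid5b and Klf6. Over 404 high ribosomal CD8 cells without granzyme and 1974 candidates they were the MHC class I gene H2-D1 (0.223), Tagap (0.206), the interferon-γ receptor Ifngr1 (0.196) and Adgre5 (0.191), followed by Ccr7, Cd69, Prr13, Eif5, Arid4b and Nfkbia. Adgre5 was the only gene in both lists of 10. All these correlations are weak.

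Cells of expanded clonotypes, seen in 2 or more cells, were set beside cells with a clonotype of their own. Cells of 1 clonotype share their origin and are not replicates. The spread between clonotypes was not examined, and all genes were not compared between expanded and single cells. In CD8 cells with granzyme Junb had 3.36 UMIs per 10000 (2.65 to 4.19) in 44 expanded cells and 1.82 (1.42 to 2.31) in 53 single cells, with intervals that did not meet. Jund did not show this, with 4.01 (3.23 to 4.92) and 3.997 (3.38 to 4.69). Ier2 had 1.61 (1.14 to 2.22) and 1.13 (0.812 to 1.52), and Zfp36 1.18 (0.775 to 1.71) and 0.992 (0.699 to 1.37), both with overlapping intervals. In 12 expanded CD4 cells Jund had 10 UMIs, a rate of 1.69 (0.810 to 3.11), against 4.52 (4.13 to 4.93) in 253 single cells. In 12 expanded CD8 cells without granzyme the 10 members together had 13.1 (10.5 to 16.1), against 7.49 (7.20 to 7.80) in 408 single cells. The last 2 rest on 12 cells each.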

How the data were processed

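Per the file headers, the authors counted UMIs per gene and barcode with Cell Ranger 4, and the submitters' notes name GRCm38; the deposited values are raw counts (UMIs) of all barcodes in 1 library, and clonotypes come from the deposited receptor table. Libraries of other treatments were not analysed here. Cells were barcodes with at least 1331 UMIs, the 99th percentile of the 3000 largest barcodes divided by 10. Doublets were not called, and cells with marks of both Cd4 and CD8 fell outside the classes. UMIs were summed over the cells of a class and divided by all UMIs of the class. Rates carry exact Poisson, shares exact Clopper-Pearson and ratios conditional binomial 95% intervals. They cover counting error only and no p-value was computed. For shares, each cell was thinned once, with a fixed seed, to 1331 UMIs, so no cell was left out. The limits of a 1.5-fold ratio and 50 UMIs set the counts of genes. All 10 members were named, and of each wider list the 2 genes with most UMIs and at most 4 genes past the limit in a comparison. The members, classes and lists were chosen with earlier results of these data known. The scripts were tested on simulated data. Alternatives were depth limits, totals without ribosomal protein and mitochondrial genes, means over cells, other marker limits, clonotyped cells, ribosomal limits and no UMI minimum. Free RNA was also subtracted, at an assumed 5% of the UMIs of a class. Leaving out cells with 3 markers of another lineage, and mixed T and B cells, was added after seeing the data. Promoter windows are RefSeq sequences of GRCm38.p6. Python 3.11.15, numpy 2.4.6, scipy 1.17.1, pandas 2.3.3 and matplotlib 3.10.9 were used.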

Additional observations from a re-analysis of the deposited data

Results flagged for a closer look

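Of the 422 cells outside the 4 classes, groups were formed by at least 3 markers of a cell type, a grouping chosen after seeing the data, and they enter no comparison above. The 10 members together had 73.3 UMIs per 10000 (66.8 to 80.3) in 19 cells with neutrophil markers, 18.5 in 5 cells with monocyte markers, 15.7 in 9 cells with natural killer cell markers, 9.09 in 193 cells with T cell markers and 6.72 in 142 cells with none of these marks. In 49 cells with UMIs of both Cd4 and CD8, which overlap the other groups, the rate was 8.12. All these rates lay above the free RNA rate of 4.47 (4.03 to 4.95). The 20 cells with platelet markers had 1.89 and the 23 with erythroid markers 1.13, both under free RNA.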

How the results depend on the processing

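The ratio of the 10 members summed kept its direction in every comparison and setting run. For CD8 cells with against without granzyme (1.23) it became 1.55 among cells of 2000 to 4000 UMIs, 1.09 without ribosomal protein and mitochondrial genes and 1.38 with Gzma and Gzmb alone. For CD4 against CD8 cells (1.32) the same first 2 settings gave 1.10 and 1.15, means over cells 1.22, at least 2 marker UMIs 1.46 and a ribosomal share of 10% or more 1.49. For Cd79a against T cells (2.41) it was 2.64 with at least 2 marker UMIs, 2.71 without coreceptor UMIs and 2.62 without mixed cells. For low against high ribosomal CD4 cells (0.389) it was 0.301 without ribosomal protein and mitochondrial genes, 0.529 among clonotyped cells and 0.507 at a limit of 15%, and for CD8 cells (0.653) 0.441 and 0.804 in the first 2 of these, 0.425 at 2000 to 4000 UMIs and 0.576 with at least 2 marker UMIs.

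Counts of members past the limit moved more. With granzyme, 0 higher became 3 at 2000 to 4000 UMIs, 2 for means over cells and 1 with no UMI minimum, and 2 lower became 0 at 2000 to 4000 UMIs, without the top cell, with at least 2 marker UMIs, among clonotyped cells and at a ribosomal share of 10% or more, 1 with Gzma and Gzmb alone or without other lineages, and 4 with no minimum. In the settings with 0 lower, Jun had fewer than 50 UMIs and was not counted. In CD4 cells, 4 higher became 1 at 2000 to 4000 UMIs and 2 without ribosomal protein and mitochondrial genes or as means over cells. In Cd79a cells, 4 higher became 2 at 2000 to 4000 UMIs, and 0 lower became 1 at 2000 UMIs or more, without ribosomal protein and mitochondrial genes or as means over cells, and 2 with no minimum. In low ribosomal CD4 cells, 0 higher and 4 lower became 1 and 8 with no minimum. In low ribosomal CD8 cells, 1 higher became 0 at 2000 to 4000 UMIs, without ribosomal protein and mitochondrial genes, as means over cells, with at least 2 marker UMIs and among clonotyped cells, and 4 with no minimum. Dusp1 turned to 0.598 in CD4 against CD8 cells at 2000 to 4000 UMIs. In low against high ribosomal CD8 cells it turned to 0.427 there, 0.681 with at least 2 marker UMIs and 0.967 without other lineages. Fewer than 50 Dusp1 UMIs were left in both comparisons at 2000 to 4000 UMIs and in the one without other lineages. The cause of these changes was not tested. Shares of all genes past the limit were computed on all UMIs and without ribosomal protein and mitochondrial genes, and in no other setting.

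The share of T cells with a UMI of any member was 55.1% when thinned to 1331 UMIs and 75.1% at 2500 UMIs, with 923 of 1072 cells deep enough. No value carries a replicate, and members under 50 UMIs allow no statement on differences at this depth. No paired analysis was possible because there is 1 library.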

Other observations

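The 19 cells with neutrophil markers, which the enrichment is meant to remove, held several members at rates found in no class above. Dusp1 had 18.0 UMIs per 10000 and a UMI in 19 of 19 cells, Junb had 19.6, Jund 17.5 and Zfp36 11.0. Fos had 22 UMIs in 10 of these cells, a rate of 3.51, while Jun and Nr4a1 had 1 UMI each and Egr1 had none. Their median depth was 3140 UMIs and 2.72% of their UMIs came from ribosomal protein genes. In 5 cells with monocyte markers Fos had 16 UMIs, 13 of them in 1 cell, and Nr4a1 had 7 UMIs. In 9 cells with natural killer cell markers Jund had 33 UMIs, a rate of 8.51 per 10000.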
